A study of Danio rerio with 16 samples.

Results

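Zebrafish gonads labelled heterozygous (HET) for a miR-214 mutation were compared according to which parent had been homozygous for the mutation. The 4 libraries of the maternal cross, in which a homozygous mother was mated to a heterozygous father, were set against the 4 libraries of the paternal cross, in which the father was homozygous and the mother heterozygous. These 8 libraries were chosen by their titles from the 16 of the series, which measured polyadenylated RNA by sequencing. The other 8 libraries came from gonads labelled homozygous mutant (KO) from the same kinds of cross, again 4 per cross, and none of them is in a HET group, although all 16 libraries set the spread used in the tests. The question put to the HET libraries is whether gonads with the same zygotic genotype differ with the parental genotype.

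Every group carried the mutation, made by CRISPR-Cas9 with 2 guide RNAs, beyond the F3 generation and crossed to the germ cell reporter tg(vasa:eGFP). The strain is given as mz 06de, tg(vasa:eGFP) and the breed as TUE, while the growth protocol names a mix of AB and TU fish. No wild-type or mutation-free group was analysed here. Each library was a pool, of 7 gonads in every maternal HET library and 9 gonads in every paternal HET library, and of 8 or 9 gonads in the KO libraries. The age reads 31 days post fertilization in the sample titles but 27 days in the age field, in every group. The labels do not say how many parents or clutches gave the pools, so parental genotype, family and pool size cannot be told apart, and p-values measure only the spread between these pools.

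miR-214 is a vertebrate microRNA that lies with miR-199 in an intron of a dynamin gene, on the opposite strand, and represses target messenger RNAs through base pairing of its seed. An offspring of a homozygous mutant mother develops from an egg that was supplied only by a mutant genome, whereas an offspring of a homozygous mutant father does not, so reciprocal crosses separate a maternal supply from the zygotic genotype. At this juvenile age the zebrafish gonad passes through a stage with early oocytes before it becomes an ovary or a testis, and gonads of both fates can enter the same pool.

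The germ cell and oocyte genes that define a juvenile gonad were abundant in all 8 HET libraries. The helicase gene DDX4, the zebrafish vasa, stood at 1214, 1233, 1165 and 1131 CPM (per-million read counts, scaled by effective library size) in maternal HET replicates 1 to 4. Its values were 1363, 1279, 1089 and 1130 CPM in paternal HET replicates 1 to 4. These values overlapped, and the log2 fold change of maternal over paternal cross was -0.04 ± 0.08 (SE; 0.01 with upper-quartile factors; adjusted p = 0.78, edgeR's quasi-likelihood test with Benjamini-Hochberg adjustment, as for every adjusted p given here). Total counts were 22759416 to 24343704 per maternal HET library and 26368367 to 30128055 per paternal HET library, groups that did not overlap (exact two-sided permutation p = 0.0286, the smallest that 4 against 4 libraries allow, and 0.114 after adjustment over 4 library measures). The number of genes detected did not follow that order, with 25950 to 26605 in the maternal and 26079 to 26443 in the paternal cross (exact permutation p = 0.714). With every library thinned to the smallest total, 785 genes were called in place of the 851 given next.

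The feature named MIR214 (ENSDARG00000083042) was examined first as a check of the labels. It held 3, 4, 9 and 3 counts in maternal HET replicates 1 to 4 and 0, 2, 0 and 0 counts in paternal HET replicates 1 to 4. The KO libraries held 0, 0, 1 and 4 counts in the maternal cross and 5, 7, 3 and 4 counts in the paternal cross. In the maternal cross the libraries labelled HET were thus mostly the higher ones, and in the paternal cross all libraries labelled KO exceeded all those labelled HET, which goes against the labels if the mutation removes the feature. The labels do not give the extent of the mutation, and polyadenylated RNA libraries do not measure the mature microRNA, so these counts do not settle the genotype. All directions therefore refer to the libraries as labelled.

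Among 21683 genes tested, 851 (3.92%) differed between the libraries labelled maternal HET and paternal HET at an adjusted p of 0.05. Of these, 594 (2.74% of genes tested) were higher and 257 (1.19%) were lower in the maternal cross. The median log2 fold change was 0.97 for the higher genes and -0.60 for the lower ones, against 0.01 over all genes tested. The values of the 4 maternal and 4 paternal libraries did not overlap for 748 of the 851 genes, against 2360 of all genes tested (10.9%). The libraries labelled paternal HET stood at the edge of the 4 groups: they had the lowest of the 4 group means for 573 of the 594 higher genes and the highest for 229 of the 257 lower genes. The contrast that called these genes used that group, so the shares are a description. Maternal HET had the highest mean for 323 of the 594 and the lowest for 163 of the 257. Over all 21683 genes tested, paternal HET had the lowest mean for 8383 and the highest for 7531. For maternal HET these numbers were 3082 and 3341.

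The number of genes called depended on the libraries. Leaving out maternal HET replicate 1 gave 1472 genes, replicate 2 gave 175, replicate 3 gave 181 and replicate 4 gave 1991. Without paternal HET replicate 1 there were 1180, without replicate 2 146, without replicate 3 159 and without replicate 4 402. A fit of the 8 HET libraries alone called 193 genes.

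Among named genes with at least 1 CPM and no overlap, the largest rise was that of si:ch211-158d24.4 (ENSDARG00000093048). Its level was 5.43, 5.32, 4.11 and 8.14 CPM in maternal HET replicates 1 to 4, and 0.422, 0.412, 0.255 and 0.279 CPM in paternal HET replicates 1 to 4. Every maternal library exceeded every paternal one, by 16.6-fold in the fit (log2 fold change 4.06 ± 0.27, SE; adjusted p = 7.43e-07). In the KO libraries, which are in neither HET group, the log2 fold change of the same gene was 3.34 (adjusted p = 6.12e-06), with means of 5.84 CPM in the maternal and 0.569 CPM in the paternal cross. The HET difference passed the threshold under all 27 alternative settings and omissions tried.

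In all, 55 genes differed between the crosses in the same direction among both HET and KO gonads, which is 6.46% of the 851 HET calls and 16.0% of the 344 KO calls (1.59% of genes tested). They were 23 of the 594 higher and 32 of the 257 lower genes, where 0.881% of genes tested were higher and 0.706% lower among KO gonads. Their median absolute log2 fold change was 1.201 among HET and 1.15 among KO gonads. Genes of this set named here, other than those with the largest HET changes, were chosen after their values were seen.

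Several of these cross genes were low in 1 cross whatever the genotype label. AQP8 (ENSDARG00000045141), an aquaporin water channel gene, had 6.74, 9.74, 14.1 and 8.33 CPM in maternal HET replicates 1 to 4 and 3.34, 1.95, 2.26 and 2.93 CPM in paternal HET replicates 1 to 4. The groups did not overlap, and the log2 fold changes were 1.90 ± 0.26 (SE; adjusted p = 0.00221) among HET and 1.64 (adjusted p = 0.00519) among KO gonads. MED1 (ENSDARG00000075340), a subunit of the Mediator complex that links nuclear receptors to RNA polymerase II, had 15.3, 14.7, 16.9 and 12.9 CPM in the maternal and 7.06, 4.64, 5.36 and 5.68 CPM in the paternal HET libraries. These groups were again apart, with log2 fold changes of 1.39 ± 0.14 (SE; adjusted p = 0.000117) and, among KO gonads, 0.77 (adjusted p = 0.0117). ntd5 (ENSDARG00000040944) and si:ch211-135n15.1 (ENSDARG00000088867) rose by 2.35 and 2.66 on the log2 scale among HET and by 1.39 and 2.38 among KO gonads.

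Genes higher in the paternal cross under both labels had changes of like size. MIF4GD (ENSDARG00000102080), whose product in mammals acts in the translation of histone messenger RNAs, had 4.35, 2.93, 3.87 and 2.31 CPM in maternal HET replicates 1 to 4. Paternal HET replicates 1 to 4 had 12.5, 34.4, 53.4 and 22.8 CPM. All paternal values were higher but they differed widely among themselves, and the log2 fold changes were -3.19 ± 0.43 (SE; adjusted p = 0.00221) among HET and -2.39 (adjusted p = 0.0121) among KO gonads. Another identifier tested carries the same name, so reads may be shared between copies.

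The gene ENSDARG00000101254 varied little between pools, with 0.655, 0.723, 0.592 and 0.787 CPM in the maternal HET libraries and 2.73, 2.43, 2.99 and 2.96 CPM in the paternal ones. Its log2 fold change was -2.01 ± 0.20 (SE; adjusted p = 0.000117) among HET and -2.08 (adjusted p = 4.85e-05) among KO gonads. The values for si:ch211-182p11.1 (ENSDARG00000104324) were 2.06, 1.15, 3.12 and 2.04 CPM against 10.7, 10.6, 12.6 and 7.70 CPM, also without overlap. It fell by 2.31 on the log2 scale among HET and by 1.98 among KO gonads. LEF1 (ENSDARG00000031894), a transcription factor of the Wnt pathway, fell by 0.69 (adjusted p = 0.00749) and by 0.65 (adjusted p = 0.0128) respectively.

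Some cross genes were next to each other in gene order. Genes that were untested or could not be placed by a unique name were skipped, and distances were not used. In the order of RefSeq's GRCz12tu assembly, used for neighbourhood only, 14212 tested genes had a unique place and 528 of the called genes were among them. Of these, 71 (13.5%) stood next to another called gene, where 7.22% of all placed genes did, and 45 of the 71 had a called neighbour that changed in the same direction. With 594 of the 851 calls higher and 257 lower, many called neighbours would share a direction anyway. The count of 45 was not tested against that. Of the genes called under both labels, 26 had a unique place, and 5 of these stood next to a gene called among HET gonads. The longest run, of 5 neighbouring called genes, mixed directions: dnajb2, tuba8l3 and tuba8l5 were higher in the maternal cross and cfap65 and MYO16 lower. The stretch of tsga10, cracdlb and LEF1 fell together, with log2 fold changes of -1.40, -0.42 and -0.69 among HET and -1.20, -0.40 and -0.65 among KO gonads. The genes si:dkey-14d8.9, si:dkey-14d8.21 and si:dkey-14d8.23, which share a clone name but were in no such run, also fell under both labels. For si:dkey-14d8.9 (ENSDARG00000095186) the values were 0.234, 0.255, 0.276 and 0.185 CPM in the maternal and 1.19, 0.973, 0.656 and 1.22 CPM in the paternal HET libraries. Adjacent copies such as smyhc1 and smyhc2 can share reads, so their counts are uncertain.

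**Figure D1:**
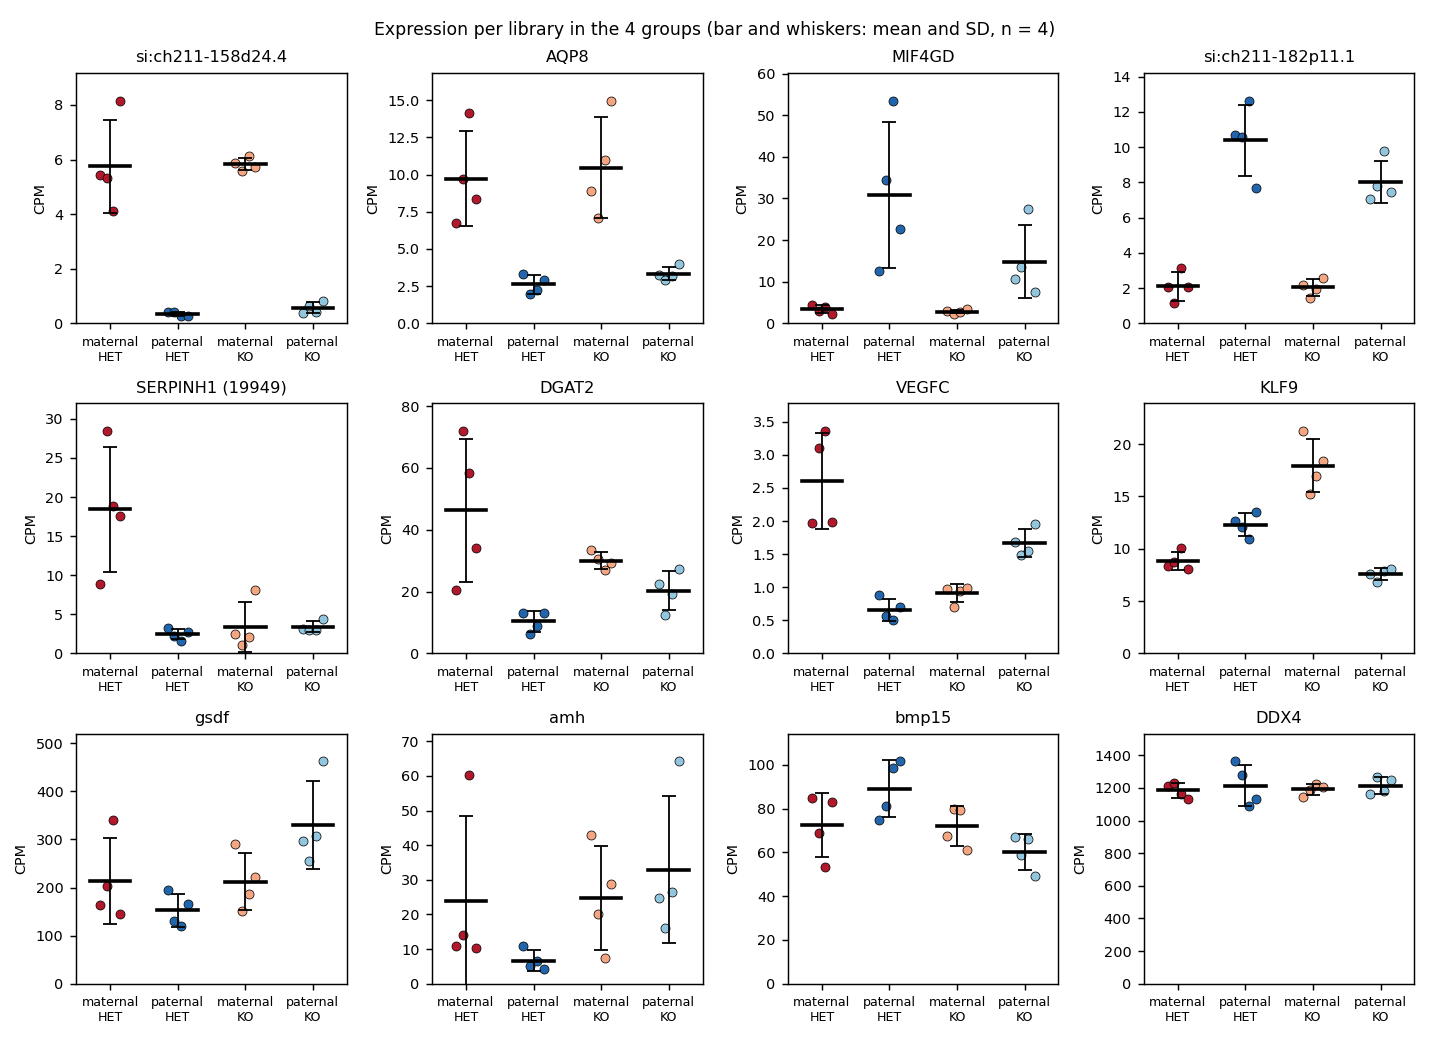
CPM in each of the 16 libraries for 12 genes, by labelled group, where points are libraries and bars with whiskers are the mean and SD of 4 libraries. si:ch211-158d24.4, AQP8, MIF4GD and si:ch211-182p11.1 follow the cross under both labels, SERPINH1 (ENSDARG00000019949) is high in the maternal HET libraries, and DDX4 is level across the groups (means 1191 to 1214 in the KO groups).

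Most of the genes called among HET gonads were not called among KO gonads. Of the 594 higher genes, 360 (60.6%) had a positive fold change among KO gonads, and the median KO log2 fold change was 0.09. Of the 257 lower genes, 211 (82.1%) had a negative one, with a median of -0.19. Over all genes tested the sign was shared by 52.3%. The difference between the HET and KO cross differences, tested in the same fit, passed the threshold for 41 genes (0.189% of genes tested; 0.129% with a higher and 0.06% with a lower difference among HET). Of these, 21 were among the 851. For the remaining genes a call among HET gonads alone does not show that the cross difference depends on the label.

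Of those 21, the smallest adjusted p for the difference was that of KLF9 (ENSDARG00000068194), a transcription factor gene that glucocorticoids induce in vertebrates. Its level was 8.33, 8.76, 10.03 and 8.10 CPM in maternal HET replicates 1 to 4 and 12.6, 12.1, 10.9 and 13.6 CPM in paternal HET replicates 1 to 4. The paternal libraries were all higher among HET gonads, with a log2 fold change of -0.48 ± 0.12 (SE; adjusted p = 0.0322; not called in 4 of the 8 fits without 1 HET library), whereas among KO gonads the maternal mean was 17.9 CPM and the paternal mean 7.59 CPM. That gave a KO log2 fold change of 1.24 (adjusted p = 4.85e-05) and a difference of differences of -1.72 (adjusted p = 0.000179). PIM1 (ENSDARG00000100020), a survival kinase gene, and ENTREP2 (ENSDARG00000053380) were the other lower genes of this kind, with differences of -0.77 and -0.83. This set of 21 genes, too, was named after its values were seen, apart from VEGFC and sncb.

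The other 18 genes were higher in the maternal cross among HET gonads and had a negative log2 fold change among KO gonads. VEGFC (ENSDARG00000069640), the growth factor of lymphatic vessels, had 1.97, 3.10, 3.36 and 1.99 CPM in the maternal and 0.883, 0.561, 0.510 and 0.697 CPM in the paternal HET libraries. The groups were apart, with a HET log2 fold change of 1.97 ± 0.24 (SE; adjusted p = 0.000985) against -0.88 (adjusted p = 0.0699) among KO gonads and a difference of 2.85 (adjusted p = 0.00118). aplnra (ENSDARG00000002172), a receptor gene for apelin peptides, had 2.95, 3.70, 3.79 and 2.82 CPM against 1.497, 1.42, 1.49 and 1.36 CPM. Its paternal HET libraries were closely alike and all lower, and the difference of differences was 1.99 (adjusted p = 0.00671).

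NAT8L (ENSDARG00000077256), the gene of the enzyme that makes N-acetylaspartate, rose by 0.99 among HET and fell by 0.80 among KO gonads, both past the threshold (adjusted p = 0.00885 and 0.0304). HOXC5 (ENSDARG00000070340), a homeobox gene, did likewise at very low levels, from 0.298 to 0.509 CPM in maternal HET against 0.0729 to 0.174 CPM in paternal HET libraries. Other genes with such a difference were FGF18 (difference 2.32), a fibroblast growth factor, the Wnt receptor gene FZD2 (1.27), the cadherin gene cdh6 (1.58), the stromal surface gene cd248b (1.79) and TNFSF10 (1.15), a death ligand gene. In the 8 fits made without 1 of the HET libraries, the calls of the difference for FGF18, FZD2, cdh6 and cd248b were each lost in 5, that for ENTREP2 in 6, and those for TNFSF10, NAT8L, HOXC5, KLF9, VEGFC, aplnra and PIM1 in 0. Over all 25 alternative settings and omissions, those of KO libraries included, the call was lost in 12 for FGF18, 15 for FZD2 and 13 for cdh6. It was lost in 14 each for cd248b and ENTREP2.

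**Figure D2:**
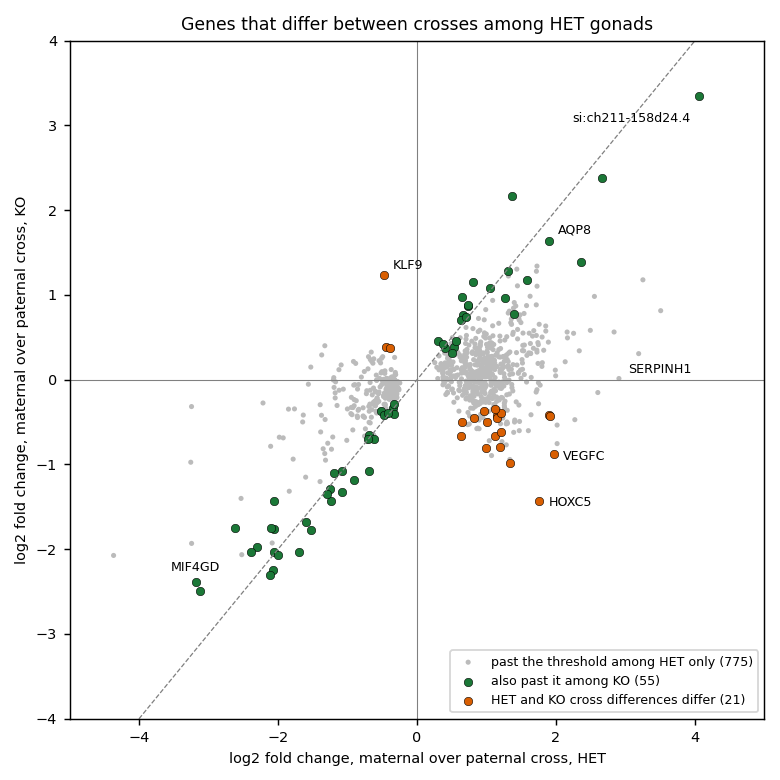
Log2 fold change of maternal over paternal cross among HET gonads (horizontal) and KO gonads (vertical) for the 851 genes that passed the threshold among HET gonads, with the line of equality dashed. Green points are the 55 genes past it in both with 1 sign, orange points the 21 whose HET and KO differences differ, and the grey cloud of higher genes lies about a KO value of 0 (median 0.09 for the higher genes).

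Genes with large rises among HET gonads and no call among KO gonads included SERPINH1 and DGAT2. SERPINH1 (ENSDARG00000019949), which encodes the collagen chaperone HSP47, had 8.94, 28.4, 18.8 and 17.6 CPM in maternal HET replicates 1 to 4. It had 3.22, 2.28, 1.64 and 2.68 CPM in paternal HET replicates 1 to 4. The lowest maternal library was above the highest paternal one, with a 7.497-fold rise (log2 fold change 2.91 ± 0.47, SE; adjusted p = 0.00512). The KO log2 fold change was 0.01 (adjusted p = 0.993), and the difference between them, 2.89, missed the threshold (adjusted p = 0.0765).

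Another gene named SERPINH1 (ENSDARG00000075954) had 28.1, 48.4, 45.0 and 30.4 CPM in the maternal and 18.5, 13.7, 13.7 and 17.9 CPM in the paternal HET libraries. It rose by 1.25 ± 0.19 on the log2 scale (SE; adjusted p = 0.00428), again with replicates 2 and 3 of the maternal cross the highest. DGAT2 (ENSDARG00000018846), the gene of an enzyme of the last step of triglyceride synthesis, had 20.5, 71.9, 58.4 and 34.2 CPM against 13.0, 6.36, 9.00 and 13.0 CPM. The groups did not overlap (log2 fold change 2.16 ± 0.33, SE; adjusted p = 0.00404), and the KO value was 0.56 (adjusted p = 0.41).

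The remaining large rises were of lower or less even genes. MYO3B (ENSDARG00000006892), a class III myosin gene, had 3.32, 3.83, 1.82 and 2.73 CPM in maternal HET against 0.349 to 0.461 CPM in paternal HET libraries, a log2 fold change of 2.84. gsk3bb (ENSDARG00000052468), a copy of the gene of glycogen synthase kinase 3 beta, had 1.31, 1.57, 1.82 and 1.02 CPM against 0.422, 0.299, 0.182 and 0.0697 CPM, a log2 fold change of 2.55. ASPN (ENSDARG00000002192), which encodes the matrix proteoglycan asporin, had 1.497, 1.70, 8.53 and 0.648 CPM against 0.192, 0.262, 0.328 and 0.558 CPM. Maternal HET replicate 3 stood far above the others. The log2 fold change of 3.19 was as low as 1.92 in the fits without 1 HET library, and its call was lost in 2 of those 8 fits. Without maternal replicates 1 and 3 it came down to 1.80, where it no longer passed the threshold.

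PRRX1 (ENSDARG00000042027), a homeobox gene of mesenchyme, showed the same replicate on top, at 4.54 CPM beside 0.925 to 1.66 CPM in the other maternal HET libraries, and 5 of the 8 fits made without 1 of the HET libraries no longer called it. sncb (ENSDARG00000104945), the beta-synuclein gene, P2RX3 (ENSDARG00000010477), an ATP-gated channel gene, herc56.3 (ENSDARG00000074136) and NCEH1 (ENSDARG00000062087), a cholesteryl ester hydrolase gene, rose by 1.90, 2.00, 1.85 and 1.82 on the log2 scale. P2RX3 lost its call in 2 of those 8 fits and the other 3 in none.

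The large falls were mostly of genes known only by a clone name. ENPP2 (ENSDARG00000011257), which encodes autotaxin, the enzyme that makes lysophosphatidic acid, had 1.497, 1.91, 2.80 and 1.295 CPM in maternal HET replicates 1 to 4 against 8.14, 11.3, 18.8 and 5.65 CPM in paternal HET replicates 1 to 4. The groups were apart, the fall was 2.53 ± 0.37 on the log2 scale (SE; adjusted p = 0.00287), and it passed the threshold in all 27 alternatives. Among KO gonads the value was -1.40 (adjusted p = 0.0606).

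cd28l (ENSDARG00000069978), a gene like that of the T cell receptor CD28, had 0.655, 0.766, 2.45 and 4.72 CPM against 13.9, 10.6, 14.9 and 9.97 CPM. Its log2 fold change of -2.52 (adjusted p = 0.0286) lost its call in 4 of the 8 fits with 1 HET library left out, and the KO value was -2.07 (adjusted p = 0.0821). si:dkey-219e21.2 (ENSDARG00000096739) had 1.03, 0.808, 0.948 and 0.555 CPM against 7.33, 4.19, 9.91 and 10.7 CPM, a log2 fold change of -3.26.

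si:dkey-83f18.13 (ENSDARG00000093662) had 0 to 2 counts in each maternal HET library and 0.692 to 1.42 CPM in the paternal ones, so its fold is not given. zgc:158258 had 1.54 CPM in maternal HET replicate 3 and 1.57 CPM in paternal HET replicate 3, with the other libraries well apart. zgc:158258, si:ch211-42g2.1 and LRIT1, a leucine-rich repeat membrane protein gene, fell by 3.25, 3.25 and 2.22 on the log2 scale. Further clone-named genes, si:ch1073-303l23.1, si:dkey-27l20.2, si:ch211-14a11.2 and si:ch211-226h8.16, fell by 2.11, 2.09, 2.07 and 1.98. The first 3 of these lost their call in 5, 7 and 5 of the 8 fits with 1 HET library left out.

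Extracellular matrix genes included the most calls of any list examined by number, though 4 of 9 adipocyte and 3 of 11 nervous system genes were larger shares. Of 42 matrix genes tested, 8 were higher in the maternal cross among HET gonads and 0 lower, where 2.74% of all genes tested were higher, 37 had a positive fold change, and the list median was 0.53, against 0.01 over all genes and -0.03 for the same list among KO gonads. In bulk pools, fewer cells of a type and less RNA per cell cannot be told apart. COL5A2 (ENSDARG00000031678), a chain of fibrillar collagen V, had 73.3, 111.5, 130.3 and 68.0 CPM in the maternal and 54.9, 49.9, 42.0 and 44.9 CPM in the paternal HET libraries. The groups did not overlap (log2 fold change 1.00 ± 0.21, SE; adjusted p = 0.0205), but the margin was small for replicates 1 and 4 of the maternal cross.

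PLOD2 (ENSDARG00000011821), a lysyl hydroxylase gene for collagen crosslinks, rose by 1.18 (adjusted p = 0.0233), and POSTN (ENSDARG00000104267), the gene of the matrix protein periostin, by 0.93 (adjusted p = 0.0239). The other called members were both SERPINH1 genes, COL6A3 (0.76), COL6A2 (0.70) and col18a1a (0.53), chains of collagens VI and XVIII. COL1A1 (ENSDARG00000035809), COL1A2 and SPARC, with log2 fold changes of 0.76, 0.78 and 0.51, did not pass. The related list members col1a1a, col5a2b and another identifier named POSTN (ENSDARG00000043806) were not among the called genes either. The number of called matrix genes was 18 without maternal HET replicate 4, 17 without paternal replicate 1, 14 without maternal replicate 1, and 2 or 3 without maternal replicate 2 or 3 or paternal replicate 2, 3 or 4. The summed level of the matrix list was 2910, 3853, 4295 and 2671 CPM in maternal HET replicates 1 to 4 and 2923, 2258, 2052 and 1986 CPM in paternal HET replicates 1 to 4, so these sums overlapped. The KO sums were 2811 to 4922 CPM in the maternal and 3312 to 4900 CPM in the paternal cross. Maternal HET was thus not above the KO groups.

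Of 9 adipocyte genes tested, 4 were higher and 0 lower, where 2.74% of all genes tested were higher, with a list median of 0.90 (0.02 among KO gonads). CEBPA (ENSDARG00000036074), a transcription factor gene of fat cells that other tissues use too, had 20.2, 39.9, 40.1 and 23.0 CPM in maternal HET replicates 1 to 4 and 12.7, 8.94, 9.59 and 16.3 CPM in paternal HET replicates 1 to 4. The groups did not overlap (log2 fold change 1.38 ± 0.24, SE; adjusted p = 0.00866), and maternal replicates 2 and 3 were again high. fabp4a (1.204), a fatty acid binding protein gene, and both genes named LPL (1.24 for ENSDARG00000087697 and 0.75 for ENSDARG00000098720), the triglyceride lipase, were the other 3. Called adipocyte genes numbered 1 without maternal HET replicate 2 or paternal replicate 2 or 3, and 2 without maternal replicate 3. The list's summed level was 302, 642, 594 and 411 CPM in the maternal and 238, 161, 195 and 297 CPM in the paternal HET libraries, apart by a narrow margin. The KO sums were 366 to 559 CPM in the maternal and 340 to 574 CPM in the paternal cross. The paternal HET sums were thus the lowest of the 4 groups.

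Against the same 2.74%, 2 of 13 endothelial genes were higher: the VEGF receptor gene kdrl (0.77; adjusted p = 0.00556) and plvapa (0.97), a gene of the diaphragms of capillaries. The list median was 0.52 against -0.09 among KO gonads. The endothelial sums were 197.6 to 290.4 CPM in maternal HET and 167.2 to 211.0 CPM in paternal HET libraries. They were 220.0 to 262.9 CPM in maternal KO and 238.2 to 300.9 CPM in paternal KO libraries. Of 11 nervous system genes, 3 were higher, again where 2.74% of all genes were, among them SNAP25 (2.27), of synaptic vesicle fusion, and the myelin gene mbpa (1.36). Of the 11, 7 had a positive fold change, with a list median of 0.26 (0.01 among KO gonads) and a lowest value of -0.31. Another identifier named SNAP25 was not called. SNAP25 (ENSDARG00000058117) had 0.281, 1.02, 0.632 and 1.16 CPM in maternal HET against 0.115, 0.187, 0.182 and 0.139 CPM in paternal HET libraries, low levels that did not overlap. In the 8 fits without 1 HET library, SNAP25 and kdrl lost their call in 0, plvapa in 4 and mbpa in 5.

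Marker RNA of muscle and exocrine pancreas was uneven between the HET libraries. Of 17 muscle genes, 15 had a positive fold change with a median of 1.69. The parvalbumin gene pvalb2 was the 1 called (1.89, adjusted p = 0.0363), where 2.74% of all genes tested were higher. Its groups overlapped and its call was lost in 6 of the 8 fits without 1 HET library. At an unadjusted p under 0.05 there were 15 of the 17, and DESeq2 called 11, all higher. Over all 21683 genes tested, 5611 had such a p and DESeq2 called 2026, of which 1343 were higher. The summed level of the muscle genes was 2733, 1040, 4573 and 490 CPM in maternal HET replicates 1 to 4 and 474, 969, 574 and 412 CPM in paternal HET replicates 1 to 4, high in maternal replicates 1 and 3. No gene of 17 of the exocrine pancreas was called among HET gonads, although all had a positive fold change (median 2.73). At an unadjusted p under 0.05 there were 14, and DESeq2 called 0. Maternal HET replicate 1 held 1144 CPM of them against 131 to 186 CPM in the other maternal and 25.7 to 123.3 CPM in the paternal HET libraries. Among KO gonads the median was 4.67 with 6 called, where 0.881% of all genes tested were higher. The KO sums were uneven too, at 181, 381, 3148 and 14656 CPM in maternal KO replicates 1 to 4. The paternal KO libraries held 46.7 to 355 CPM. Without maternal HET replicates 1 and 3, 98 genes were called in place of 851 (71 higher and 27 lower), the matrix list had 2 called genes, the adipocyte list 3 and the muscle list 0. That fit also had fewer maternal libraries to detect a difference. Left out singly, maternal HET replicate 1 gave 1472 calls, replicate 3 gave 181 and replicate 2 gave 175. Liver and intestine markers had medians of -0.16 (8 of 18 positive) and -0.17 (3 of 8 positive). The part of muscle or pancreas RNA in the other results was not tested.

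**Figure D3:**
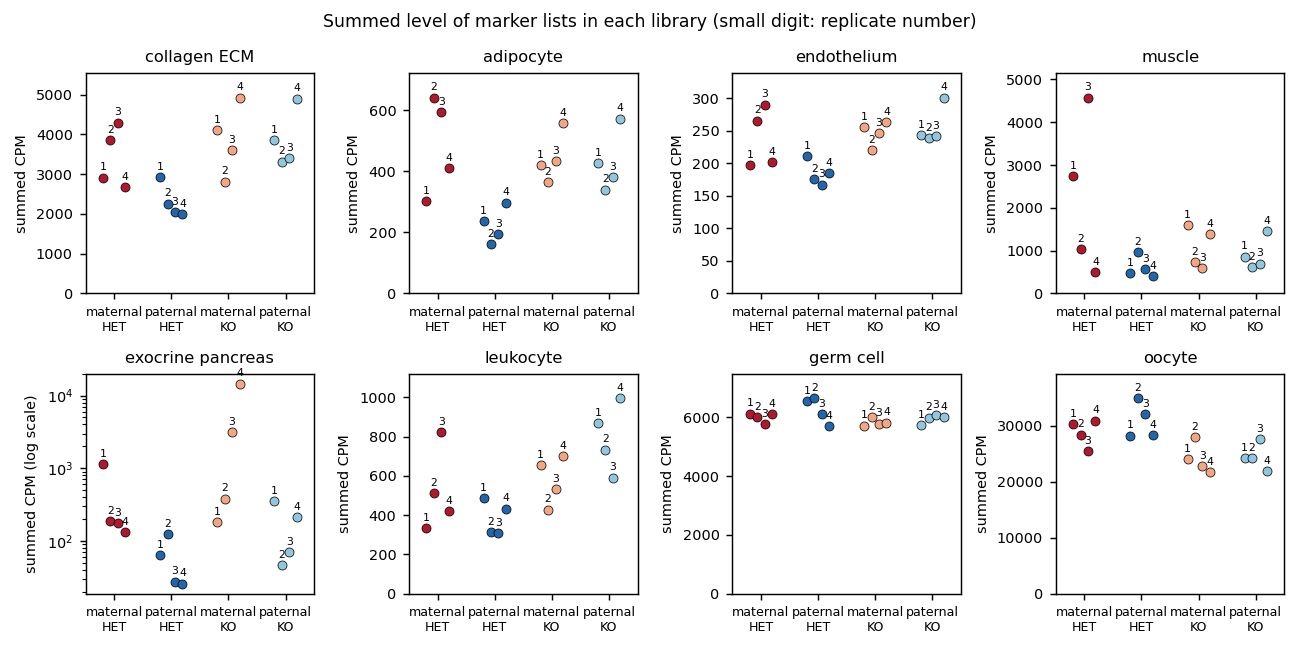
Summed CPM of 8 marker lists in each library by labelled group, with the replicate number above each point and a log axis for the exocrine pancreas. Matrix, adipocyte and endothelial sums are highest in maternal HET replicates 2 and 3 among the HET libraries, muscle is highest in maternal HET replicates 1 and 3, and germ cell sums are nearly level.

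The genes of gonadal fate examined here did not pass the threshold in the main fit, and the pools differed widely in some of them. Of 27 alternative settings and omissions, amh passed in 1 and SOX9 (ENSDARG00000003293) in 2. gsdf (ENSDARG00000075301), a TGF-beta family gene of the somatic cells around germ cells, had 164.4, 204.1, 341.0 and 144.4 CPM in maternal HET replicates 1 to 4. Paternal HET replicates 1 to 4 had 194.7, 130.1, 119.6 and 166.4 CPM. The groups overlapped, and the log2 fold change was 0.48 ± 0.26 (SE; adjusted p = 0.245) with a KO value of -0.64 (adjusted p = 0.243) and a difference between them of 1.12 (adjusted p = 0.161).

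amh (ENSDARG00000014357), the anti-Müllerian hormone gene, had 10.9, 14.2, 60.4 and 10.2 CPM against 10.9, 5.01, 6.63 and 4.11 CPM. Maternal replicate 3 stood far above the others, the groups overlapped, and the log2 fold change of 1.85 ± 0.62 missed the threshold (SE; adjusted p = 0.0853). The testis factor gene DMRT1 had 29.7 CPM in that same library beside 11.6, 15.4 and 12.9 CPM in the other maternal and 10.1 to 21.0 CPM in the paternal HET libraries (log2 fold change 0.36; adjusted p = 0.467). SOX9 (ENSDARG00000003293) was at 1.67 to 4.15 CPM against 1.01 to 1.65 CPM, apart by the narrowest of margins (log2 fold change 1.02; adjusted p = 0.0754), while the other SOX9 (ENSDARG00000043923) overlapped (0.41; adjusted p = 0.446).

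Of 16 testis somatic genes, 15 had a positive fold change (median 0.38) and 0 were called, and of 21 ovarian somatic genes 16 were positive (median 0.35) and 0 were called. At an unadjusted p under 0.05 these numbers were 7 and 9, where 5611 of all 21683 genes tested had such a p. DESeq2 called 1 and 2, all higher, where it called 2026 of all genes tested. CYP19A1 (ENSDARG00000041348), the gonadal aromatase gene, had 4.77, 8.04, 4.90 and 4.72 CPM against 8.56, 7.56, 7.00 and 6.31 CPM (log2 fold change -0.39; adjusted p = 0.226). Maternal replicate 2 lay inside the paternal range and the other 3 below it. The granulosa factor genes FOXL2 (ENSDARG00000042180 and ENSDARG00000068417) had log2 fold changes of -0.07 and -0.53 (adjusted p = 0.828 and 0.134). Among KO gonads 5 of the 16 testis and 8 of the 21 ovarian somatic genes were positive, with medians of -0.24 and -0.17.

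Oocyte genes leaned the other way without a call. Of 26 tested, 25 had a negative fold change, with a median of -0.13 and values from -0.48 to 0.14. edgeR called 0, 7 had an unadjusted p under 0.05, and DESeq2 called 2 as lower. Over all 21683 genes tested, 5611 had such a p and DESeq2 called 683 as lower. Among KO gonads 15 of the 26 oocyte genes were positive, with a median of 0.01. The oocyte growth factor gene bmp15 (ENSDARG00000037491) had 84.7, 68.9, 53.5 and 83.1 CPM in maternal HET replicates 1 to 4 and 75.0, 81.4, 98.5 and 101.6 CPM in paternal HET replicates 1 to 4. These overlapped (log2 fold change -0.30 ± 0.15, SE; adjusted p = 0.205), and GDF9, its partner, had a value of -0.13 (adjusted p = 0.46). The lowest bmp15 library, maternal replicate 3, was the one with the most amh, gsdf and DMRT1.

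Germ cell genes were close to level in size of change, though most had a negative fold change. Of 19 tested, 2 had a positive fold change, edgeR called 0 and the median was -0.05. An unadjusted p under 0.05 was seen for 3 of them and for 5611 of all 21683 genes tested. DESeq2 called 1 of the 19 as higher, where it called 1343 of all genes tested as higher. DAZL, an RNA-binding protein gene of germ cells, had a log2 fold change of -0.06 (adjusted p = 0.677). The meiosis list had a median of 0.00 with 0 of 17 called by either tool and 3 at an unadjusted p under 0.05. In the spermatogenic list 1 of 16 was lower, where 1.19% of all genes tested were. It was TBPL1 (ENSDARG00000036868), a TATA-binding protein relative needed for spermatid development in mice, at 30.8, 30.02, 30.2 and 36.0 CPM against 40.0, 38.5, 44.9 and 52.5 CPM (log2 fold change -0.47, adjusted p = 0.0215). Its call was lost in 4 of the 8 fits without 1 HET library.

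Among proliferation genes 30 of 34 had a negative fold change (median -0.17). The 1 that was called, where 2.74% of all genes tested were higher, was MCM6 (ENSDARG00000057683), a subunit of the replicative helicase. It went the other way, with 21.6, 32.6, 36.9 and 19.3 CPM against 20.8, 14.0, 11.8 and 12.9 CPM (log2 fold change 0.89, adjusted p = 0.0391). Its groups overlapped, its call was lost in 5 of the 8 fits without 1 HET library, and another tested identifier has the same name. Among KO gonads 26 of the 34 proliferation genes had a positive fold change (median 0.07).

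**Figure D4:**
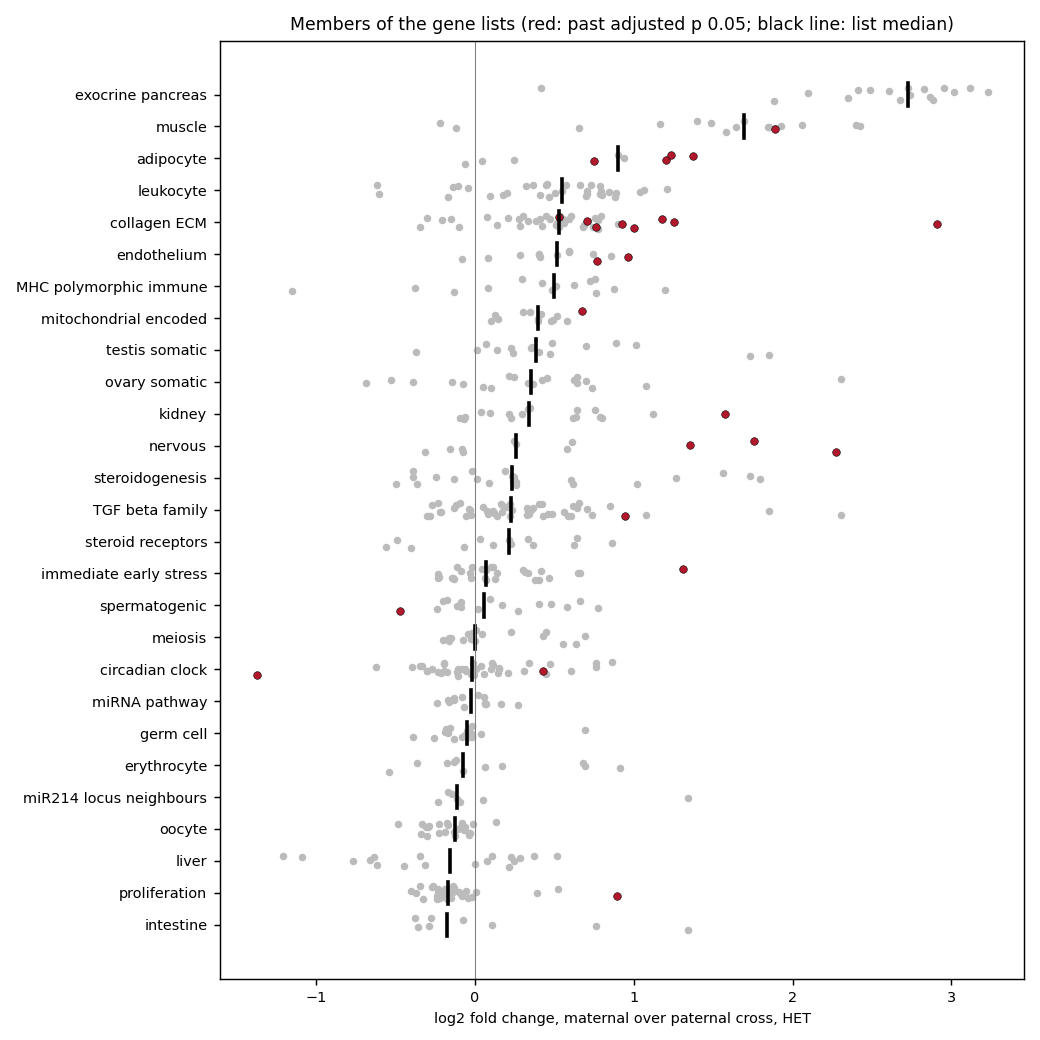
Log2 fold change of maternal over paternal cross among HET gonads for each tested member of 27 gene lists, ordered by list median (black lines), with members past the threshold in red. Pancreas and muscle have the highest medians (2.73 and 1.69) with 0 and 1 called genes, the matrix list has 8 called genes and the oocyte and germ cell lists have none.

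Leukocyte genes had a median of 0.55 with 27 of 33 positive and 0 called by edgeR. Of the 33, 14 had an unadjusted p under 0.05, and 2 were called as higher by DESeq2. Over all 21683 genes tested, 11193 had a positive fold change and 5611 had such a p. DESeq2 called 2026 of all genes tested, 1343 of them as higher. ptprc (ENSDARG00000071437), the CD45 gene, had 16.4, 21.7, 37.1 and 17.9 CPM against 20.5, 11.9, 12.1 and 14.3 CPM (log2 fold change 0.66; adjusted p = 0.118), with maternal replicate 3 on top and the groups overlapping. CORO1A, an actin regulator gene of leukocytes, had a value of 0.58 (adjusted p = 0.184). The summed level of the list reached 821.8 CPM in maternal replicate 3 and lay between 307.8 and 510.0 CPM in the other HET libraries. The KO sums were 427.8 to 701.8 CPM in the maternal and 590.3 to 996.1 CPM in the paternal cross. Among KO gonads the leukocyte median was -0.37, with 7 of the 33 genes positive. Histocompatibility and related immune genes, which can vary between families, had a median of 0.50 among HET gonads and 0 of 14 called by edgeR, 7 with an unadjusted p under 0.05, and 2 called by DESeq2, 1 in each direction. Their median among KO gonads was -0.29, with 2 of the 14 positive.

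Single members of other lists passed, where 2.74% of all genes tested were higher and 1.19% lower. Of the 21683 genes tested, 5611 had an unadjusted p under 0.05. DESeq2 called 2026, of which 1343 were higher. LRP2 (ENSDARG00000102506), which encodes the endocytic receptor megalin, had 67.8, 61.1, 58.3 and 43.9 CPM in maternal HET against 20.4, 12.7, 21.1 and 23.2 CPM in paternal HET libraries. Its groups were far apart (log2 fold change 1.58 ± 0.23, SE; adjusted p = 0.00287; KO 0.87, adjusted p = 0.0578), though it was the only 1 of 18 kidney genes called. NR1D1 (ENSDARG00000033160), the clock repressor Rev-erb alpha, had 1.78, 2.13, 4.03 and 1.34 CPM against 7.22, 5.501, 3.90 and 7.598 CPM. It fell by 1.37 (adjusted p = 0.0205), and the groups overlapped at replicate 3 of each cross. Its call was lost in 3 of the 8 fits without 1 HET library. rorca, a clock activator gene, rose by 0.43 (adjusted p = 0.0335) but lost its call in 5 of those fits, and the other 40 of 42 clock genes did not pass (list median -0.02). At an unadjusted p under 0.05 there were 14 of the 42 clock genes, and DESeq2 called 4 as higher and 2 as lower. Of the 18 kidney genes, 4 had such a p and DESeq2 called 4, all as higher.

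Of the 21683 genes tested, 2.74% were higher, 5611 had an unadjusted p under 0.05 and DESeq2 called 2026, as a background for the lists that follow. In the TGF-beta family, 1 of 50 genes was called, the receptor gene BMPR2 (ENSDARG00000020057, log2 fold change 0.94, adjusted p = 0.0434), and 37 had a positive fold change. Another tested identifier named BMPR2 was not called. Of the 50 genes of this family, 19 had an unadjusted p under 0.05 and DESeq2 called 4, all as higher. hsp90aa1.1 (1.31; adjusted p = 0.0116), a chaperone gene used in muscle fibres of fish, was the only 1 of 29 immediate-early and stress genes called, and MT-ND2 (0.67; adjusted p = 0.0389) the only 1 of 13 mitochondrially encoded genes, all of which had a positive fold change (median 0.40). BMPR2 and MT-ND2 each lost their call in 5 of the 8 fits without 1 HET library, and hsp90aa1.1 in 0. An unadjusted p under 0.05 was seen for 2 of the 29 stress genes and 8 of the 13 mitochondrially encoded genes. DESeq2 called 1 and 2 of these, all as higher. edgeR called no gene among 22 steroidogenic enzymes, where 10 had an unadjusted p under 0.05 and DESeq2 called 3, or among 13 steroid receptors, where 5 and 0 did so. The same held for 14 genes of the microRNA pathway (1 and 0), 11 erythrocyte (0 and 0), 18 liver (1 and 1) and 8 intestine (2 and 1) markers, in the same order. Of 7 tested genes listed as neighbours of miR-214, edgeR called 0, 2 had an unadjusted p under 0.05 and DESeq2 called 1. The positions of these 7 genes relative to miR-214 were not checked. dnm3a (ENSDARG00000032238), a dynamin 3 gene, had 21.1, 15.8, 17.0 and 16.2 CPM against 15.1, 21.7, 22.2 and 19.6 CPM, overlapping (log2 fold change -0.17; adjusted p = 0.464).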

How the data were processed

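The authors deposited 1 table of read counts per Ensembl gene, whole numbers that had not been normalized, with 1 column per library. Libraries were made with a stranded mRNA kit from pooled gonads and all 16 were sequenced together, per the labels' protocols. The submitters' processing notes name STAR 2.4.1d, featureCounts 1.4.6, DESeq2 and the build danRer10, without roles; annotation and strand setting are not given in the sources used here, so overlapping genes and near-identical copies are uncertain.

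Gene names came from a table of Ensembl identifiers that named 26121 of 31953 genes and 808 of the 851 called; upper-case names can be shared by duplicated genes, so identifiers are given, and dnm3os had no match. Neighbours came from RefSeq's GRCz12tu by unique name, among tested genes only.

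Genes were filtered by group with a minimum count of 10 (21683 kept, 3284 had no count at all). edgeR 4.0.16 in R 4.3.3 fitted 1 coefficient per group over all 16 libraries, with TMM factors and a quasi-likelihood F test. Benjamini-Hochberg adjustment covered all genes tested, at a threshold of 0.05. CPM values use TMM effective library sizes. The procedure was tested on simulated counts. Contrasts were maternal minus paternal among HET, the same among KO, and their difference. Replicates of a group differed by more than sampling noise (chi-square per degree of freedom from 6.46 to 52.6).

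Named genes were the 15 largest rises and falls with a name, no overlap and at least 1 CPM in the higher group, called members of 27 lists (up to 6 per list, and the rest by count), and 14 fixed genes. Members and lists were chosen with earlier results of these data known. Alternatives covered normalization, filters, thresholds, the HET libraries alone, thinning, a replicate block, DESeq2 1.42.0 and leaving out each library; leaving out both maternal HET libraries highest in muscle RNA was added after seeing the data. The values of 1 called list gene are not reported here.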

Additional observations from a re-analysis of the deposited data

Results flagged for a closer look

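Values of 1 library stood apart from the other 3 of its group in 5 of 144 sets of 4 examined, where chance gives about 7.2. On the log2 CPM scale, maternal HET replicate 3 had 0.70 for zgc:158258 beside -0.54 to -0.46 in the others, maternal HET replicate 4 had 5.77 for col18a1a beside 6.15 to 6.20, maternal HET replicate 4 had 5.18 for TBPL1 beside 4.91 to 4.95, and maternal HET replicate 2 had 3.02 for CYP19A1 beside 2.26 to 2.32. Paternal HET replicate 1 had a total of 26.4 M counts beside 29.5 to 30.1 M.

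The cross difference among HET gonads differed from that among KO gonads for 21 genes that were called among HET gonads. The difference of the log2 fold changes was 3.19 for HOXC5, 2.85 for VEGFC, 2.35 for ENSDARG00000105302, 2.32 for sncb and 2.32 for FGF18. It was 1.99 for aplnra, 1.83 for EVA1B, 1.79 for NAT8L, 1.79 for cd248b, 1.595 for si:ch73-334d15.1, 1.59 for NOVA1, 1.58 for cdh6 and 1.51 for rca2.2. It was 1.46 for FLRT2, 1.33 for rtn2b, 1.29 for TRIL, 1.27 for FZD2 and 1.15 for TNFSF10, and it was negative for KLF9 (-1.72), ENTREP2 (-0.83) and PIM1 (-0.77). Not all of these calls were equally firm. Of 25 alternative settings and omissions, the call was lost in 15 each for NOVA1 and ENSDARG00000105302, and in 14 each for FLRT2 and si:ch73-334d15.1. It was lost in 13 for TRIL, 11 each for sncb and rca2.2, 9 for rtn2b and 1 for EVA1B.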

How the results depend on the processing

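The 851 calls of the cross difference among HET became 193 with the 8 HET libraries alone, 2026 with DESeq2's Wald test, 72 at an adjusted p of 0.01, 348 with a log2 change of 1 or more either way, 98 without maternal HET replicates 1 and 3, and 146 to 1991 with each library left out in turn. The 344 KO calls became 836 with DESeq2, 38 at 0.01, 168 with such a log2 change, and 109 to 495 with libraries left out. The 41 genes whose cross differences differ became 19 with upper-quartile factors, 70 without a filter on low counts, 637 with DESeq2, 10 at 0.01, 20 without maternal HET replicates 1 and 3, and 14 to 181 with libraries left out. The remaining settings stayed within 1.5 times, and no named gene past the threshold changed direction. Of the named genes' cross differences among HET over all settings, 2992 stayed as they were in direction and call, 609 lost a call, 3 gained one and 5 changed sign without a call; the cause of the moves was not tested. Those 5 were SOX9 (-0.02) and FOXL2 (0.04; ENSDARG00000042180) without maternal HET replicates 1 and 3, DDX4 with upper-quartile factors (0.01) and with libraries left out (-0.09 to 0.02), and DMRT1 with libraries left out (-0.03 to 0.65). The HET minus KO difference also changed sign, uncalled, for 5 genes. Without maternal HET replicates 1 and 3 it was -0.18 for DMRT1, 0.02 for CYP19A1 and 0.10 for FOXL2 (ENSDARG00000068417). With upper-quartile factors it was 0.07 for that FOXL2, 0.06 for DDX4 and 0.04 for dnm3a. After thinning to the smallest library it was 0.13 for FOXL2 and 0.00 for DDX4, and at a minimum count of 30 it was 0.01 for both. With libraries left out it ran from -0.27 to 0.40 for DMRT1, -0.16 to 0.12 for FOXL2, -0.06 to 0.05 for DDX4 and -0.15 to 0.04 for dnm3a. Maternal and paternal HET libraries with equal replicate numbers did not deviate together (correlations -0.41 to 0.08). Pairing by number that involves the KO libraries was not tested. A replicate block gave 345, 134 and 13 calls, and 2 in the 8 HET libraries alone. Depth limits genes near 3 counts per library (0.0996 to 0.132 CPM in HET libraries), covering counting error only.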
